A study of Mus musculus with 12 samples.

Results

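The genes described here encode ion channels of neurons: the pore and beta subunits of voltage-gated sodium channels, the pore subunits of voltage-gated calcium channels, several families of potassium channels, and the hyperpolarization-activated (HCN) channels. The list holds 34 genes, chosen with earlier results of these data known and grouped by channel class. Of these, 31 were measured among the 18193 genes on the arrays. Kcnb2, Kcnk9 and Hcn4 were not analysed here. RNA was profiled on Affymetrix mouse arrays in medulloblastomas (MBs) of 8 mice, in granule neural progenitors (GNPs) of 2 mice and in whole cerebellum of 2 mice. The MBs arose in Nestin-Cre p53-/- Xrcc4 c/- mice, apart from tumors MB_1206 and MB_706, which came from Nestin-Cre p53-/- Xrcc4 c/c mice. All 8 thus lacked p53 and carried a conditional allele of Xrcc4, a factor of DNA end-joining, which Cre removes in cells where the Nestin promoter is active, the neural progenitors and their descendants. The study describes the normal samples as coming from control animals matched for age and genotype, but the labels give neither their genotype nor their age, and no age is given for the tumors. The labels call the MBs tumor tissue, while the methods name 6 of them (MB_630, MB_794, MB_1197, MB_1206, MB_1207 and MB_1224) among the MB cells kept in culture.

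Voltage-gated channels open when the membrane potential changes. Sodium channels carry the rising phase of the action potential, calcium channels couple it to transmitter release and to signaling inside the cell, and potassium channels end it and set how fast a neuron can fire again. In the cerebellum, progenitors of the external granular layer leave the cell cycle, migrate inward and become granule neurons, and they acquire the channels of a firing neuron on the way. Purkinje cells and molecular layer interneurons, which fire at high rates, carry channel sets of their own. MBs of the SHH type resemble granule progenitors.

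Expression is given as a log2 level on the deposited scale, normalized by GCRMA, in which the lowest value is 2.20. Samples carry the titles of the labels, MB_, CGNP_ for the GNPs and WC_ for whole cerebellum, each followed by the mouse's number. A level below 3 is called close to the floor, and a difference from a group at such a level is a lower bound. Values there can also vary little between samples, as for Kcna4 with an SD of 0.05 over the 8 MBs. A small standard error or p-value can then reflect the floor. Between 42.2% and 43.4% of all probe sets, the short-probe groups that each give 1 value, stood above a level of 5 on each array. The targeted gene Xrcc4 averaged 2.93 ± 0.39 (SD, n = 8) in MBs, with means of 3.88 in GNPs and 4.29 in cerebellum. Set against GNPs the log2 difference was -0.95 (adjusted p = 0.0249, limma) and against cerebellum -1.36 (adjusted p = 0.00298), and whether its probes lie in the deleted exons was not tested. Tumor MB_706 stood apart in a sign of RNA quality. Its 3' control probes exceeded the 5' ones by 2.93 (log2), where the remaining MBs had 0.56 to 0.82 and the normal samples 0.15 to 0.52. The mean level of 6 markers of granule progenitors was 10.01 to 10.69 in MBs, 6.19 to 6.25 in GNPs and 4.09 to 4.18 in cerebellum. In GNPs Gli1, a target of SHH signaling, was close to the floor at 2.30, and 6 markers of mesenchymal cells averaged 6.97 to 7.19, against 4.43 to 4.63 in cerebellum.

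Most of the listed channel genes were lower in MBs than in cerebellum. In the limma fit 23 of the 31 fell, 4 rose and 4 did not pass, where 21.8% of all 18193 genes fell and 22.2% rose. The median log2 difference was -1.86 over the channel genes and 0.00 over all genes. Over 100 further channel subunits and partners, described below, it was -0.04, and 36 of those fell. Many of those were close to the floor in all 3 groups, such as Cacna1f, Cacna1s and Kcng2 at 2.20, where a fall could not be seen. Every MB was below both cerebellum samples for 21 of the 31 genes, against 22.6% of all genes, and above both for 4, against 24.3% of all genes. Between MBs and GNPs 17 channel genes fell and 1 rose, with a median of -0.85, where 18.6% of all genes fell and 18.7% rose. Between GNPs and cerebellum 15 fell and 6 rose, with a median of -0.73, where 13.6% of all genes fell and 14.9% rose. A mean level above 5 was reached by 8 of the 31 genes in MBs, 18 in GNPs and 20 in cerebellum. The gene means of Cacna1d, Cacna1h, Kcnc4 and Kcnj6 were close to the floor in all 3 groups, although single probe sets of Cacna1d, Kcnc4 and Kcnj6 stood above 3 in at least 1 group.

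**Figure D1:**
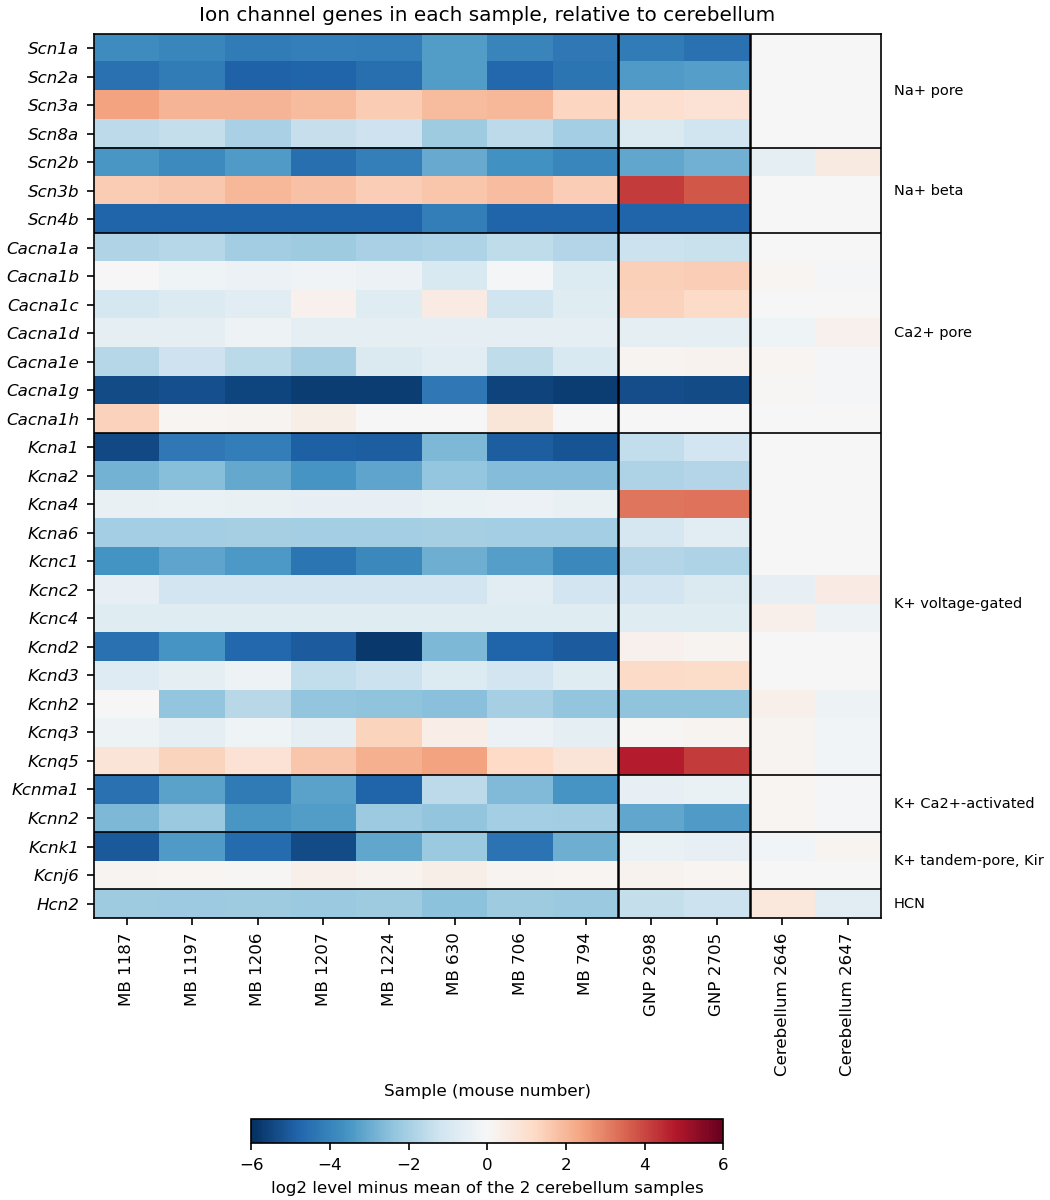
Log2 level of each of the 31 channel genes (rows, by class) in each of the 12 samples (columns, named by mouse number), minus the mean of the 2 cerebellum samples; blue is lower and red higher than cerebellum. The MB columns are mostly blue, with Scn3a, Scn3b and Kcnq5 red, and the GNP columns are red also for Cacna1b, Cacna1c, Kcna4 and Kcnd3.

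Relative to cerebellum, markers of several cell types moved with these genes. Relative to GNPs 3 of 8 granule neuron markers fell in MBs and 1 rose, and 2 of 7 Purkinje cell markers fell. In that comparison 2 of 7 oligodendrocyte and 3 of 8 astroglia markers fell, where 18.6% of all genes fell and 18.7% rose. Of all genes 21.8% fell and 22.2% rose relative to cerebellum. All 7 measured Purkinje cell markers fell in MBs relative to cerebellum, with mean levels of 2.92 to 6.28 in MBs, 4.16 to 4.27 in GNPs and 10.7 to 10.8 in cerebellum. Of 8 granule neuron markers 7 fell, with means of 7.29 to 9.65 in MBs, 8.68 to 8.71 in GNPs and 12.2 to 12.3 in cerebellum. Of 8 markers carried by all neurons 6 fell relative to cerebellum while Map2 rose by 0.91 and Tubb3 by 1.34, and 6 fell relative to GNPs while 2 did not pass, with means of 6.52 to 8.0 in MBs, 10.02 to 10.09 in GNPs and 10.36 in cerebellum. Of the Purkinje cell markers Ppp1r17 and Arhgef33 were close to the floor in MBs and also in GNPs, where Rgs8 was too. All 7 oligodendrocyte markers and 6 of 8 astroglia markers also fell relative to cerebellum, while all 5 markers of proliferating cells rose, with means of 8.61 to 9.27 in MBs, 5.68 to 5.88 in GNPs and 2.52 to 2.58 in cerebellum. Of 6 inhibitory interneuron markers 5 fell relative to cerebellum and 4 relative to GNPs, with means of 3.01 to 4.73 in MBs, 4.94 to 5.14 in GNPs and 7.49 to 7.51 in cerebellum. Of 8 microglia markers 3 rose relative to cerebellum and 6 relative to GNPs, with means of 5.40 to 6.71 in MBs, 2.93 to 3.82 in GNPs and 5.05 to 5.08 in cerebellum. In these bulk samples fewer cells of a type and less RNA per cell cannot be told apart, and the part of cell composition in the channel results was not tested.

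The sodium channel pore genes differed in direction. Scn3a, the pore subunit best known from embryonic neurons, was highest in MBs, while Scn1a, Scn2a and Scn8a, the pore subunits of mature neurons, were highest in cerebellum. Scn3a ranged over the 8 MBs between 4.06 and 5.18 with a median of 4.71, and stood at 3.79 and 3.63 in GNPs and at 2.76 and 2.80 in cerebellum. Every MB was above every normal sample. The log2 difference was 1.87 from cerebellum (standard error 0.233, adjusted p = 9.43e-05) and 0.95 from GNPs (standard error 0.233, adjusted p = 0.00901), and Scn3a was the 1 channel gene that rose against both tissues. The call against GNPs was lost without GNP sample CGNP_2705 (adjusted p = 0.0853). GNPs stood 0.93 above cerebellum (adjusted p = 0.0407), a call lost without any 1 of the 4 normal samples (adjusted p between 0.0977 and 0.164). Of its 2 probe sets 1 was close to the floor in all groups, at 2.20 in MBs, 2.44 in GNPs and 2.20 in cerebellum. The other stood at 7.11 in MBs, 4.98 in GNPs and 3.36 in cerebellum, and on it alone the differences were 3.75 from cerebellum and 2.13 from GNPs.

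Scn1a, best known from fast-firing inhibitory neurons, and Scn2a, found on the axons of excitatory neurons, were both lower in MBs than in cerebellum. For Scn1a the MBs lay between 3.16 and 4.14 with a median of 3.43, the GNPs at 3.29 and 2.98, and the cerebellum samples at 7.5 and 7.44. MBs and GNPs overlapped and both lay far below cerebellum, with a log2 difference of -3.97 for MBs (adjusted p = 2.83e-07) and -4.34 for GNPs (adjusted p = 1.99e-06). Between MBs and GNPs the difference in Scn1a was 0.36, with a 95% interval of -0.12 to 0.85. For Scn2a the MBs lay between 4.46 and 5.99 with a median of 4.83, the GNPs at 5.93 and 6.0, and cerebellum at 9.33 and 9.33. Tumor MB_630, the highest, reached the GNP values, and the other 7 MBs, up to 5.12, were below them. Scn2a fell by 4.41 relative to cerebellum (adjusted p = 2.72e-06) and by 1.04 relative to GNPs (adjusted p = 0.0315), a call lost without either GNP sample (adjusted p = 0.13 without CGNP_2698 and 0.164 without CGNP_2705), without tumor MB_1224 (0.0506) and on its probe set of highest signal (0.135). Scn8a, the pore subunit of the axon initial segment and nodes of Ranvier, averaged 5.83 ± 0.33 (SD, n = 8) in MBs, 6.47 in GNPs and 7.5 in cerebellum. It fell by 1.67 relative to cerebellum (adjusted p = 1.95e-04), whereas its difference of -0.63 from GNPs did not pass (adjusted p = 0.056, 95% interval -1.15 to -0.12) but did without tumor MB_1224 (adjusted p = 0.0327).

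The beta subunits, which adjust the gating and surface level of the pore subunits, also fell into different patterns. Scn3b was highest in GNPs and lowest in cerebellum. Its level ranged between 4.61 and 5.14 in MBs with a median of 4.79, stood at 7.34 and 6.90 in GNPs and at 3.13 and 3.17 in cerebellum, and no groups overlapped. Scn3b was 1.67 higher in MBs than in cerebellum (standard error 0.150, adjusted p = 9.51e-06) on the log2 scale, and its difference from GNPs was -2.29 (standard error 0.150, adjusted p = 2.02e-06). GNPs exceeded cerebellum by 3.97 (adjusted p = 2.33e-07). Scn4b, the subunit tied to the resurgent sodium current of Purkinje cells, lay at the floor of 2.20 in 7 MBs and both GNP samples, at 2.82 in tumor MB_630, and at 7.02 and 6.96 in cerebellum. Its difference from cerebellum, -4.71 for MBs (adjusted p = 5.48e-09) and -4.79 for GNPs (adjusted p = 5.72e-08), is therefore a lower bound on the fall. Scn2b averaged 3.46 ± 0.46 (SD, n = 8) in MBs, 4.21 in GNPs and 7.21 in cerebellum. It fell by 3.74 relative to cerebellum (adjusted p = 1.91e-05), and its difference of -0.75 from GNPs did not pass (adjusted p = 0.152, 95% interval -1.58 to 0.08). Of all 7 sodium channel genes 2 rose and 5 fell in MBs relative to cerebellum, and 1 rose and 2 fell relative to GNPs.

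**Figure D2:**
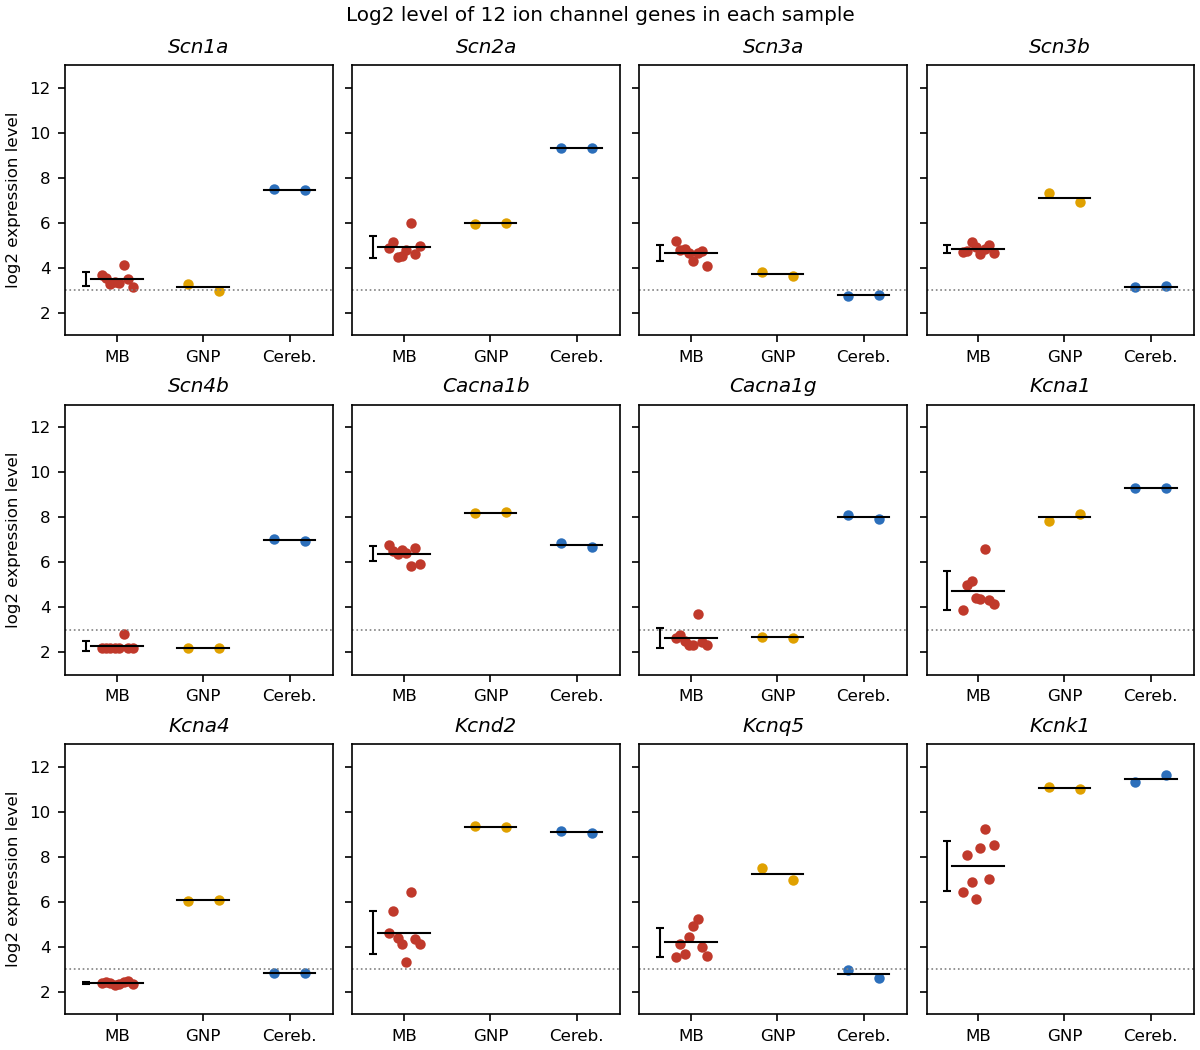
Log2 level of 12 channel genes in each of the 8 MBs, 2 GNP samples and 2 cerebellum samples; points are samples, horizontal lines are group means, the bar beside the MBs is ± 1 SD and the dotted line marks a level of 3. Scn1a, Scn4b and Cacna1g lie high in cerebellum, Kcna4 high in GNPs, and Kcnd2 and Kcnk1 in both normal tissues.

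Of the 7 calcium channel pore genes 4 fell in MBs relative to cerebellum and 3 did not pass, and 4 fell relative to GNPs and 3 did not pass. Cacna1g, a T-type channel (opening at low voltage) that is abundant in Purkinje cells, had the largest difference from cerebellum of all 31 channel genes by gene mean, while on the probe set of highest signal Scn2b (-6.85), Kcnc1 (-6.58), Kcna1 (-6.12) and Scn1a (-5.70) differed more. It stood between 2.30 and 3.71 in MBs with a median of 2.47, at 2.70 and 2.64 in GNPs, and at 8.10 and 7.93 in cerebellum. The MBs apart from tumor MB_630 lay at 2.75 or below and the groups of MBs and GNPs overlapped. The log2 difference from cerebellum was -5.39 for MBs (standard error 0.317, adjusted p = 4.76e-07) and -5.35 for GNPs (adjusted p = 6.49e-06). Both are lower bounds, since MBs and GNPs were close to the floor. Cacna1a, the P/Q-type channel of presynaptic terminals, averaged 5.20 ± 0.20 (SD, n = 8) in MBs, 5.74 in GNPs and 7.06 in cerebellum. It fell by 1.86 relative to cerebellum (adjusted p = 2.24e-06) and by 0.54 relative to GNPs (adjusted p = 0.0106), the second call being lost without GNP sample CGNP_2698 (adjusted p = 0.082) or CGNP_2705 (adjusted p = 0.0593).

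Cacna1b and Cacna1c were highest in GNPs, although Cacna1c, at 1.25 above cerebellum, did not pass in the limma fit of 3 groups (adjusted p = 0.118). Cacna1b, the N-type channel that is present on migrating granule cells, lay between 5.83 and 6.76 in MBs with a median of 6.44, at 8.2 and 8.22 in GNPs and at 6.85 and 6.66 in cerebellum. MBs were all below GNPs, with a log2 difference of -1.84 (standard error 0.227, adjusted p = 1.34e-04), and overlapped cerebellum, with a difference of -0.39 (adjusted p = 0.221, 95% interval -0.89 to 0.12). Cacna1c, an L-type channel, averaged 6.44 ± 0.61 (SD, n = 8) in MBs, 8.25 in GNPs and 7.0 in cerebellum, with tumors MB_630 and MB_1207 above cerebellum at 7.51 and 7.24. It fell by 1.81 relative to GNPs (adjusted p = 0.00646), which did not pass without GNP sample CGNP_2698 (adjusted p = 0.063), and its difference of -0.56 from cerebellum did not pass (adjusted p = 0.36, 95% interval -1.5 to 0.38). Cacna1e, the R-type channel, averaged 4.99 ± 0.46 (SD, n = 8) in MBs, 6.49 in GNPs and 6.32 in cerebellum. MBs differed by -1.5 from GNPs (adjusted p = 0.00379) and -1.33 from cerebellum (adjusted p = 0.00613). The call against cerebellum was lost without cerebellum sample WC_2646 (adjusted p = 0.0648). For the other L-type gene, Cacna1d, the probe set used lay close to the floor, while a second, with a suffix that marks probes shared between transcripts, read 7.60 in MBs, 4.82 in GNPs and 8.63 in cerebellum. On the averaged value Cacna1d fell by 0.54 relative to cerebellum (adjusted p = 0.00361, but 0.0534 without cerebellum sample WC_2647), and on the second probe set alone it was 2.78 above GNPs (adjusted p = 3.46e-04). Cacna1h, a further T-type channel, was close to the floor in all groups, with tumor MB_1187 highest at 3.62.

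Voltage-gated potassium channels formed the largest class. Of the 12 measured genes 10 fell in MBs relative to cerebellum while 1 rose, and 8 fell relative to GNPs while the other 4 did not pass. Kcnd2, a pore subunit of the A-type current that delays firing and is prominent in granule neurons, had the largest difference from GNPs of the 31 genes, both by gene mean and by brightest probe set. Its level was 3.33 to 6.44 in MBs with a median of 4.36, 9.38 and 9.30 in GNPs, and 9.16 and 9.07 in cerebellum. Every MB was below all 4 normal samples, and tumor MB_630 was the highest MB. The log2 difference was -4.72 from GNPs (standard error 0.657, adjusted p = 2.90e-04) and -4.50 from cerebellum (standard error 0.657, adjusted p = 2.84e-04). GNPs and cerebellum differed by 0.22 with a 95% interval of -1.64 to 2.09. Kcnd3, the related A-type gene, was highest in GNPs, with a mean of 4.09 ± 0.40 (SD, n = 8) in MBs, 6.10 in GNPs and 4.98 in cerebellum. It fell by 2.01 relative to GNPs (adjusted p = 2.43e-04) and by 0.89 relative to cerebellum (adjusted p = 0.0231, but 0.113 and 0.12 without cerebellum sample WC_2646 or WC_2647).

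The Shaker-type genes Kcna1, Kcna2, Kcna4 and Kcna6, which encode potassium channels of axons and terminals, all fell in MBs relative to both normal tissues. For Kcna4 the difference from cerebellum was only -0.44, with both groups close to the floor. Kcna1 lay between 3.88 and 6.60 in MBs with a median of 4.40, at 7.84 and 8.15 in GNPs and at 9.32 and 9.29 in cerebellum. Tumor MB_630 was again the highest MB and still below both GNP samples. Kcna1 fell by 4.57 relative to cerebellum (standard error 0.588, adjusted p = 1.21e-04), and its difference from GNPs was -3.26 (adjusted p = 0.00153). Kcna2 averaged 3.95 ± 0.40 (SD, n = 8) in MBs, 4.99 in GNPs and 6.78 in cerebellum. It fell by 2.83 relative to cerebellum (adjusted p = 1.55e-05), and its difference of -1.04 from GNPs (adjusted p = 0.0123) did not pass without GNP sample CGNP_2698 (0.0626) or CGNP_2705 (0.0948).

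Kcna4, which carries an inactivating A-type current, stood high in GNPs. It lay between 2.31 and 2.49 in MBs with a median of 2.38, at 6.05 and 6.07 in GNPs and at 2.81 and 2.85 in cerebellum. MBs and cerebellum were both close to the floor, and the GNP samples stood clear of it. The log2 difference of Kcna4 was -3.68 between MBs and GNPs (standard error 0.0366, adjusted p = 1.52e-12) and 3.24 between GNPs and cerebellum (adjusted p = 1.52e-11), both lower bounds in size. On its probe set of highest signal, at 2.57 in MBs, 7.43 in GNPs and 3.45 in cerebellum, the difference between MBs and GNPs was -4.86. Kcna6 stood at 2.22 ± 0.02 (SD, n = 8) in MBs, close to the floor, at 3.41 in GNPs and at 4.26 in cerebellum. It fell by 2.03 relative to cerebellum (adjusted p = 3.68e-09), and its difference from GNPs was -1.19 (adjusted p = 3.84e-07). Of its 3 probe sets 1 carried most of this, at 2.26 in MBs, 5.76 in GNPs and 6.94 in cerebellum.

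Among the Shaw-type genes, whose channels close quickly and let neurons fire fast, Kcnc1 showed the widest differences. Kcnc1 lay between 4.31 and 5.77 in MBs with a median of 5.18, at 6.92 and 6.83 in GNPs and at 8.69 and 8.70 in cerebellum. The 3 groups did not overlap. Kcnc1 fell by 3.57 relative to cerebellum (standard error 0.317, adjusted p = 9.14e-06), and its difference from GNPs was -1.75 (adjusted p = 0.00158). GNPs in turn were below cerebellum, with a difference of -1.82 (adjusted p = 0.00706). Kcnc2 averaged 2.35 in MBs, 2.35 in GNPs and 3.35 in cerebellum. MBs and cerebellum differed by -1.0 (adjusted p = 0.0114), and by -0.52 (adjusted p = 0.219) without cerebellum sample WC_2647. Kcnc4 averaged 2.21 in MBs, 2.21 in GNPs and 2.94 in cerebellum, with MBs and cerebellum differing by -0.73 (adjusted p = 2.38e-04). A second Kcnc4 probe set, left out of the mean for its suffix, read 2.25 in MBs, 2.21 in GNPs and 5.72 in cerebellum.

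Kcnq5 and Kcnq3 encode subunits of the M-current, a slow potassium current that holds neurons below threshold. Kcnq5 was highest in GNPs and was 1 of the 4 genes that rose in MBs relative to cerebellum. It lay between 3.55 and 5.22 in MBs with a median of 4.07, at 7.52 and 6.96 in GNPs and at 2.96 and 2.62 in cerebellum. No groups overlapped. The log2 difference of Kcnq5 was -3.05 between MBs and GNPs (standard error 0.443, adjusted p = 3.84e-04), 1.4 between MBs and cerebellum (adjusted p = 0.0272) and 4.45 between GNPs and cerebellum (adjusted p = 2.36e-04). The rise relative to cerebellum was lost without cerebellum sample WC_2646 (adjusted p = 0.0875) or WC_2647 (adjusted p = 0.179), whereas on the Kcnq5 probe set of highest signal it was 3.43 (adjusted p = 0.0027). Kcnq3 passed in no comparison of the limma fit, with means of 5.14 ± 0.67 (SD, n = 8) in MBs, 5.36 in GNPs and 5.25 in cerebellum. The 95% interval of its difference was -1.26 to 0.80 from GNPs and -1.14 to 0.91 from cerebellum.

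Kcnh2, the ERG potassium channel, averaged 4.14 ± 0.83 (SD, n = 8) in MBs, 3.69 in GNPs and 6.10 in cerebellum. In 1 MB, tumor MB_1187, it reached 6.08, inside the range of the cerebellum samples, which stood at 6.43 and 5.78. The difference between MBs and cerebellum, -1.96 (adjusted p = 0.019), did not pass without cerebellum sample WC_2646 (adjusted p = 0.167) or WC_2647 (adjusted p = 0.0544). The difference between GNPs and cerebellum, -2.41 (adjusted p = 0.033), did not pass without any 1 of the 4 normal samples (adjusted p between 0.0681 and 0.166).

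**Figure D3:**
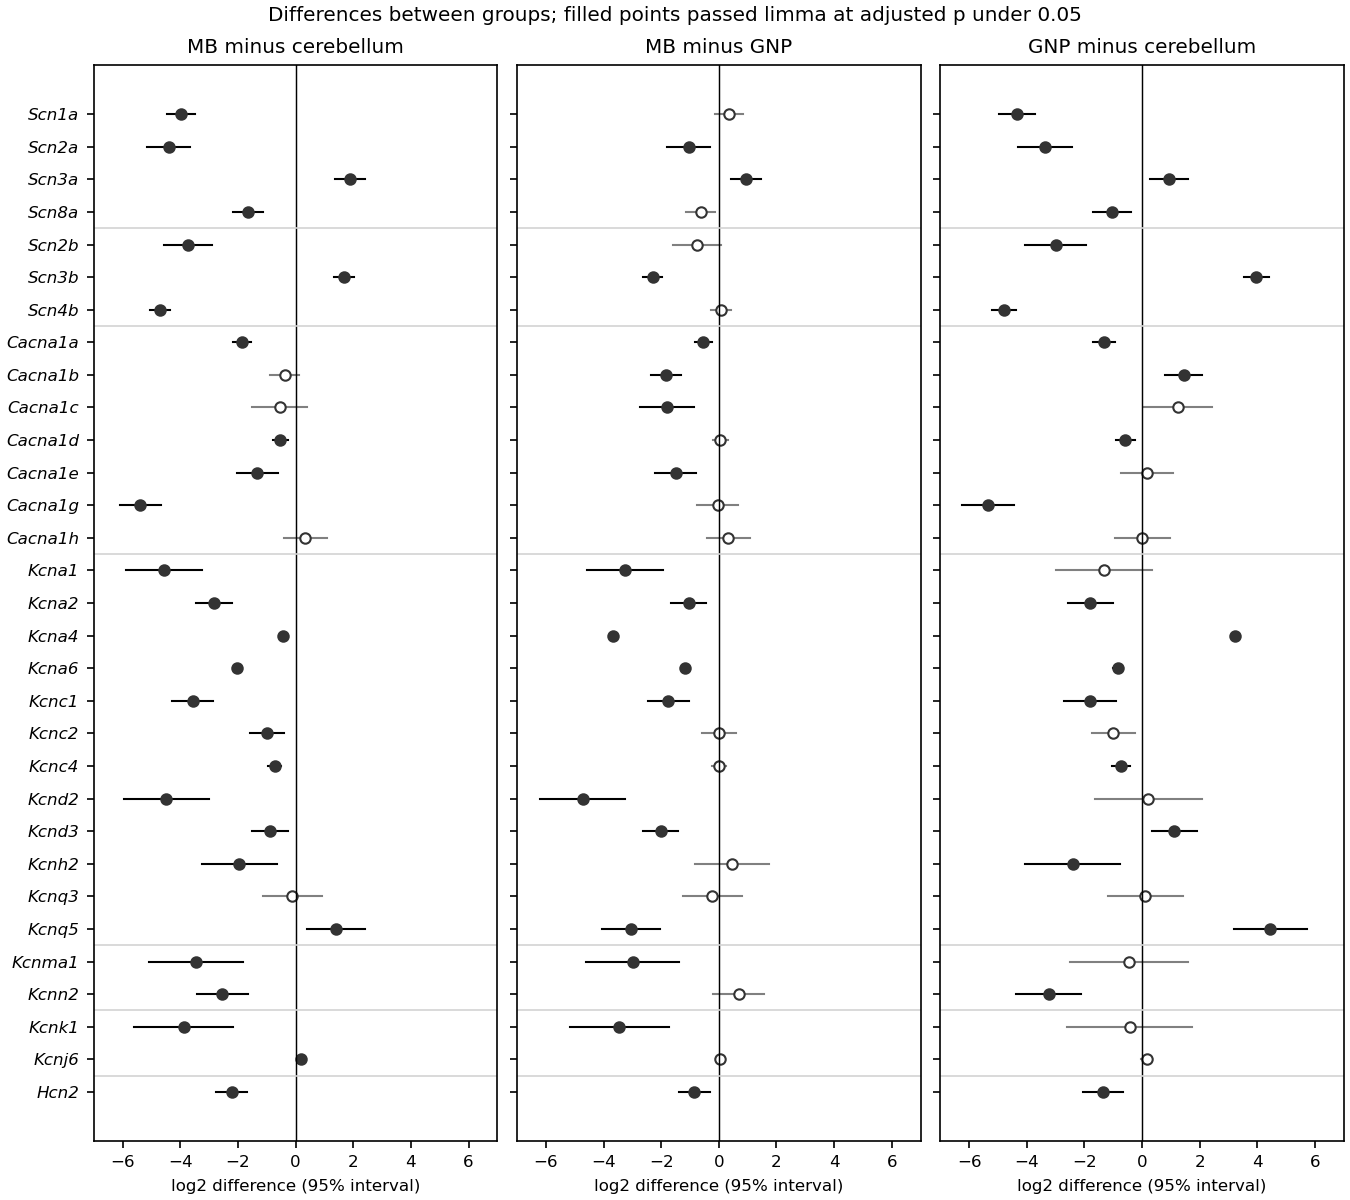
Log2 difference of each channel gene (rows, by class) between MBs and cerebellum, MBs and GNPs, and GNPs and cerebellum, with bars for the 95% interval from limma; filled points passed at an adjusted p under 0.05. Kcnd2, Kcna1, Kcnma1 and Kcnk1 lie far left in both MB panels, and Scn1a, Scn4b and Cacna1g, far left against cerebellum, lie near 0 between MBs and GNPs.

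The calcium-activated, leak and pacemaker channels Kcnma1, Kcnn2, Kcnk1 and Hcn2 also fell in MBs relative to cerebellum. Kcnma1, the large-conductance BK channel opened by voltage and calcium together, lay between 2.64 and 5.88 in MBs with a median of 4.05, at 6.91 and 7.01 in GNPs and at 7.55 and 7.30 in cerebellum. Every MB was below all normal samples, and the tumors spanned a range of 3.24. Kcnma1 fell by 3.46 relative to cerebellum (standard error 0.721, adjusted p = 0.00283), and its difference of -2.99 from GNPs (adjusted p = 0.00809) did not pass without GNP sample CGNP_2698 (0.0542) or CGNP_2705 (0.0633). Kcnk1, a tandem-pore channel that passes a resting potassium leak, lay between 6.12 and 9.23 in MBs with a median of 7.55, at 11.09 and 10.99 in GNPs and at 11.33 and 11.62 in cerebellum. The tumors were all below the normal samples and spanned a range of 3.11. Kcnk1 fell by 3.89 relative to cerebellum (standard error 0.763, adjusted p = 0.00195), and its difference from GNPs was -3.46 (adjusted p = 0.00495).

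Kcnn2, a small-conductance SK channel of the afterhyperpolarization, stood differently. It lay between 5.34 and 6.79 in MBs with a median of 6.52, at 5.71 and 5.45 in GNPs and at 8.93 and 8.71 in cerebellum, so that MBs and GNPs overlapped below cerebellum. The log2 difference of Kcnn2 between MBs and cerebellum was -2.55 (adjusted p = 4.13e-04), and that between MBs and GNPs was 0.69 (adjusted p = 0.222, 95% interval -0.20 to 1.57). Hcn2, a pacemaker channel opened by hyperpolarization, averaged 4.39 ± 0.11 (SD, n = 8) in MBs, 5.24 in GNPs and 6.60 in cerebellum. It fell by 2.21 relative to cerebellum (adjusted p = 3.63e-05), and its difference of -0.85 from GNPs (adjusted p = 0.0177) did not pass without GNP sample CGNP_2698 (0.0773) or CGNP_2705 (0.125). Kcnj6, a G protein-gated inward rectifier, had a mean close to the floor in every group, while 1 of its 5 probe sets averaged 3.56 in MBs, 3.48 in GNPs and 2.74 in cerebellum. The rise of its mean by 0.19 relative to cerebellum (adjusted p = 0.0344) was lost without cerebellum sample WC_2646 (0.117) or WC_2647 (0.189) and without tumor MB_1187 (0.0501) or MB_1224 (0.0549). Of all 16 potassium channel genes 13 fell and 2 rose in MBs relative to cerebellum, and 10 fell and 6 did not pass relative to GNPs.

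Across the classes the channel genes stood in a few patterns of level. Scn1a, Scn4b, Cacna1g and Kcnn2 stood higher in cerebellum than in MBs and GNPs, with intervals between MBs and GNPs that include 0. Kcnd2, Kcna1, Kcnma1 and Kcnk1 were lower in MBs than in both normal tissues. GNPs and cerebellum did not differ past the test for these genes in the limma fit of 3 groups (adjusted p between 0.237 and 1), although Kcna1 did in a fit of these 2 groups alone (-1.31, adjusted p = 0.031). Scn3b, Cacna1b, Kcna4, Kcnd3 and Kcnq5 were highest in GNPs, and each passed as lower in MBs than in GNPs and as higher in GNPs than in cerebellum, although for Kcnd3 the second call was lost without any 1 of the 4 normal samples (adjusted p between 0.113 and 0.124). All 6 mesenchymal markers, too, were lower in MBs than in GNPs past the test, as 18.6% of all genes were, with means of 3.03 to 6.41 in MBs and 6.97 to 7.19 in GNPs. Gfap, the 1 of 8 astroglia markers higher in GNPs than in cerebellum past the test, averaged 6.12 in MBs, 9.02 in GNPs and 5.01 in cerebellum. Eomes of unipolar brush cells averaged 4.74, 10.03 and 7.44, while Calb2, their other measured marker, was highest in cerebellum. The part of these cell types in the GNP pattern was not tested.

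The sequence before the transcription start is shown for 3 genes: Kcnd2, with the largest difference between MBs and GNPs, Kcna4, high in GNPs, and Scn2a, a sodium channel highest in cerebellum. Each is the 250 bases upstream of a RefSeq start on the plus strand of GRCm38.p6, written 5′ to 3′. Capitals mark matches, on either strand, to the GC box GGGCGG, the TATA box TATAAA, or the E-boxes CAGATG and CAGCTG, of which none contains another. The windows lie at chr6:21215096-21215345 for Kcnd2, chr2:107290339-107290588 for Kcna4 and chr2:65668436-65668685 for Scn2a, for which RefSeq lists a further start that is not shown.
Kcnd2: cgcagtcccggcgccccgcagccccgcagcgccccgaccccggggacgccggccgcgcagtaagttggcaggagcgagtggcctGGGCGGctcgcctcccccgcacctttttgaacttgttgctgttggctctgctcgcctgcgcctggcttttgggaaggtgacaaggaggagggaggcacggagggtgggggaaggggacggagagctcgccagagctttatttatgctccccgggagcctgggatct
Kcna4: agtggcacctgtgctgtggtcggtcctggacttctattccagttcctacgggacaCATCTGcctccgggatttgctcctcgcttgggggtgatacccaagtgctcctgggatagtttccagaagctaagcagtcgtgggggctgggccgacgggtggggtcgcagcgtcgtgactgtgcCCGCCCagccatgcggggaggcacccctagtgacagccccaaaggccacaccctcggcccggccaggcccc
Scn2a: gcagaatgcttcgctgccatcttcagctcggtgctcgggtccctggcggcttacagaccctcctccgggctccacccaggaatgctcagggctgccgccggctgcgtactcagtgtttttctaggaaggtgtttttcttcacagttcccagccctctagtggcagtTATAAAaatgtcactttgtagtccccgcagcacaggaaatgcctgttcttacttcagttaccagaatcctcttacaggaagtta
The Kcnd2 window has 68.8% G and C and 1 GC box, the Kcna4 window 65.2% with 1 GC box and 1 CAGATG match, both on the minus strand, and the Scn2a window 53.2% with 1 TATA box. The window of the Scn2a start not shown has 29.6% G and C and no match to these motifs. Windows were found for 23 of the 31 genes, 33 windows in all. A GC box was present in 36.4% of these and in 32.7% of all 32851 windows of that length. Counted by gene it was present for 12 of 23 channel genes (52.2%) and for 35.4% of all genes. A TATA box was present in 6.06% of the channel windows and in 12.4% of all, CAGATG in 9.09% and in 14.4%, and CAGCTG in 24.2% and in 13%. Of the 8 channel windows with CAGCTG 4 are of Kcnc2, 3 of which hold the same site, and counted by gene CAGCTG was present for 5 of 23 channel genes (21.7%) and for 14.7% of all genes. The median share of G and C was 60.8% over the channel windows and 52.4% over all. A match describes the letters of a window and does not show that a factor binds there.

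Set against all 4 normal samples together, as the study grouped them, 17 channel genes fell in MBs and 1 rose, with a median of -1.42, where 16.4% of all genes fell and 20% rose. The gene that rose was Scn3a, by 1.41 (adjusted p = 9.27e-04). By gene mean the largest falls were those of Kcnd2 (-4.61, adjusted p = 2.78e-05), Kcna1 (-3.91, adjusted p = 1.08e-04) and Kcnk1 (-3.67, adjusted p = 4.13e-04). On the probe set of highest signal Kcnk1 stood at -3.16, and Kcnc1 (-4.71), Kcna6 (-4.09) and Kcnma1 (-3.83) were among the genes with larger falls. Cacna1g and Scn4b, low in GNPs and high in cerebellum, did not pass, at -2.71 (adjusted p = 0.0645) and -2.32 (adjusted p = 0.0711), but did without GNP sample CGNP_2698 (adjusted p = 0.018 for both) or CGNP_2705 (0.0172 for Cacna1g and 0.0184 for Scn4b). Scn3b, whose MB level lay between those of cerebellum and GNPs, had a pooled difference of -0.31 (adjusted p = 0.858, 95% interval -1.99 to 1.37).

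The level of the channel genes also varied from tumor to tumor. Over the 22 with a mean above 3 in MBs the median SD among tumors was 0.463, where it was 0.275 over the 11150 genes above that level. The widest were Kcnk1 (SD 1.12), Kcnma1 (1.06), Kcnd2 (0.97), Kcna1 (0.86) and Kcnh2 (0.83). Tumor MB_630 was the highest of the 8 MBs for 12 of the 22 genes, where it was highest for 13.4% of all genes above 3, and it lay a median of 0.64 above the tumors' median. It was also the highest MB in the mean of the markers of granule neurons (9.65), Purkinje cells (6.28), inhibitory interneurons (4.73), all neurons (8.0), astroglia (7.74), oligodendrocytes (5.41) and mesenchymal cells (6.41). Tumor MB_1207 was the lowest for 8 of the 22, where it was lowest for 19% of all genes above 3, with the lowest mean of the granule neuron (7.29) and Purkinje cell (2.92) markers and the highest of the proliferation markers (9.27). It was also lowest for astroglia (5.26) and oligodendrocyte (3.18) markers. Tumor MB_1224 was lowest for the markers of all neurons (6.52, against 7.26 in MB_1207), inhibitory interneurons (3.01 against 3.02) and mesenchymal cells (3.03 against 3.31). The part of these cell types in the spread was not tested. Without tumor MB_630 the counts were 4 higher and 23 lower than in cerebellum, and 1 higher and 17 lower than in GNPs. Of all 18193 genes 4085 were then higher and 3873 lower than in cerebellum, and 3467 higher and 3398 lower than in GNPs.

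**Figure D4:**
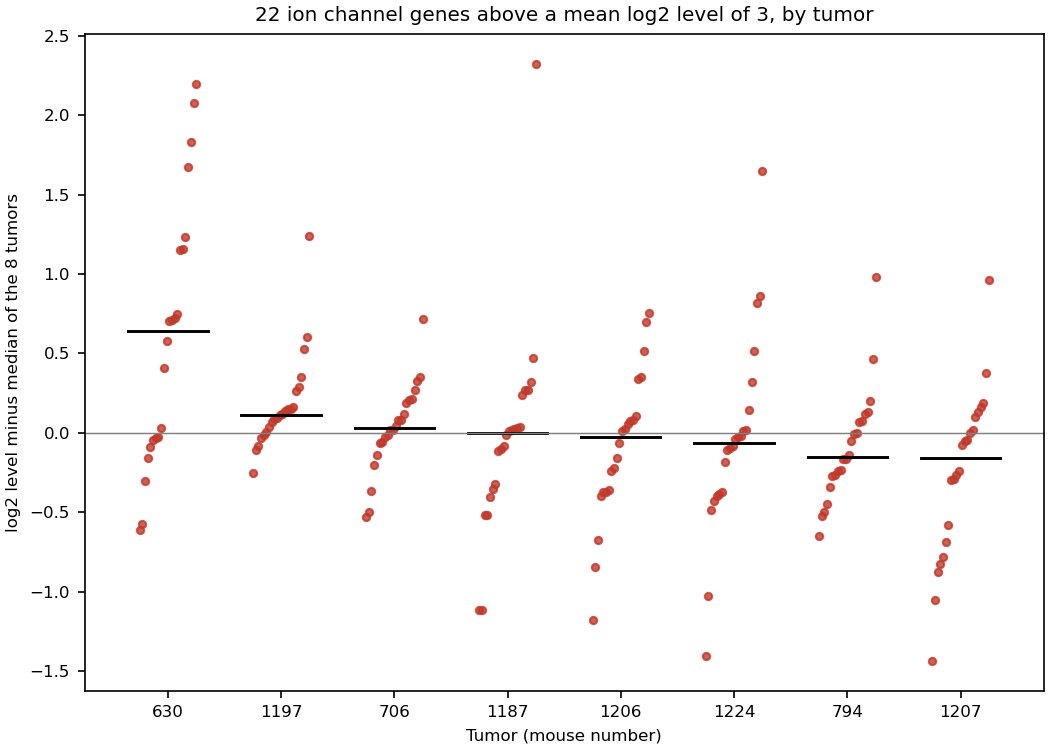
Log2 level of the 22 channel genes with a mean above 3 in MBs, minus each gene's median over the 8 tumors, by tumor; points are genes and bars are medians. Tumor MB_630 sits highest with a median of 0.64 and tumor MB_1207 lowest with -0.16, and the high points of tumors MB_1187 and MB_1224 are Kcnh2 and Kcnq3.

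How the probe sets of a gene were combined moved the size of many differences. The 31 genes had 85 probe sets, of which 82 were averaged. Of the 85, 20 probe sets in 15 genes were below 3 in all 3 groups, and a gene mean that includes one understates the difference. On the probe set of highest signal the difference between MBs and cerebellum was -5.34 for Kcna2, -6.85 for Scn2b, -4.68 for Kcna6 and -6.58 for Kcnc1. For Kcnc4 it was -3.47, on the suffixed probe set. The rises of Scn3a, Scn3b and Kcnq5 were 3.75, 3.32 and 3.43 on that measure. Cacna1b and Cacna1c turned in sign, to 0.18 and 0.20, and passed neither way.

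**Figure D5:**
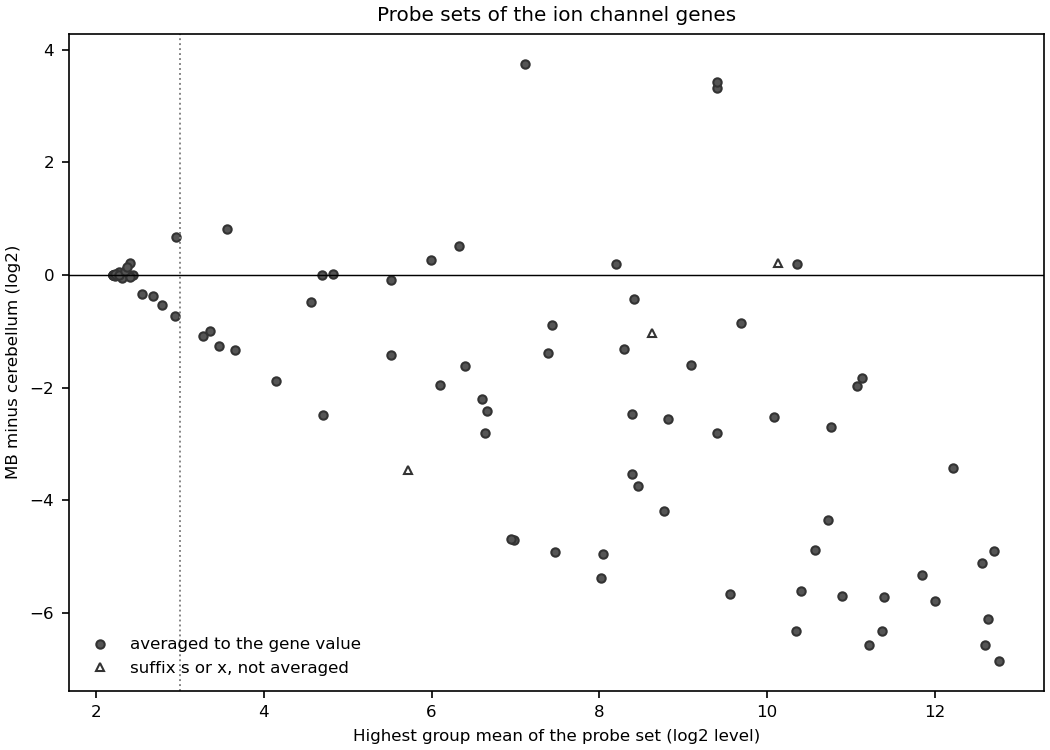
Each of the 85 probe sets of the channel genes by its highest group mean (log2 level, horizontal) and its log2 difference between MBs and cerebellum (vertical); triangles are the 3 suffixed probe sets left out of the gene means and the dotted line marks a level of 3. Probe sets left of the line differ by 0.73 at most, and the large differences lie to its right.

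Beyond these genes, 116 further channel subunits and partners were listed and 100 were measured. Of these 36 fell, 4 rose and 60 did not pass in MBs relative to cerebellum, with a median of -0.04, and 28 fell, 3 rose and 69 did not pass relative to GNPs, with a median of 0.00. Many of the 100 were close to the floor in all groups, which limits the falls that could be seen. Among the auxiliary subunits of potassium channels 10 of 16 fell relative to cerebellum, where 21.8% of all genes fell. Among the proteins that anchor and traffic channels 7 of 12 fell, and among the auxiliary subunits of calcium channels 7 of 15. Of the further voltage-gated potassium channels 3 of 19 fell and 1 rose. Most of the 19 were close to the floor in all groups, such as Kcng2, Kcnh3 and Kcnv2 at 2.20 in each. Kcnf1 was called a fall with means of 2.20 in MBs and 2.27 in cerebellum. Of the tandem-pore and inward rectifier channels 8 of 25 fell. Of the further calcium-activated group 1 of 5 fell and 1 rose. The 5 further sodium and 2 further calcium channel pore genes did not pass, and the 1 further HCN gene rose. Except for Nalcn, described below, these pore genes were close to the floor in all groups. Dpp10 and Kcnip4, which join Kcnd channels in the A-type complex, had differences of -7.06 (adjusted p = 3.9e-06) and -6.54 (adjusted p = 3.01e-06) from cerebellum. Dpp6, of the same complex, averaged 4.07 in MBs, 8.60 in GNPs and 8.45 in cerebellum, and so differed by -4.54 from GNPs (adjusted p = 2.74e-04). Kcng4, a silent subunit that modifies other potassium channels, was close to the floor in MBs and GNPs, with a difference of -6.22 from cerebellum (adjusted p = 7.02e-11).

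Relative to GNPs the other large falls were those of Kcnk12, a tandem-pore subunit at the floor in MBs (-4.54, adjusted p = 4.43e-11), and Fgf13, which binds sodium channels (-4.19, adjusted p = 1.89e-06). Among the rises, Kcnt2, a sodium-activated potassium channel, averaged 6.03 in MBs, 5.42 in GNPs and 2.37 in cerebellum, and so differed by 3.66 from cerebellum (adjusted p = 4.53e-04). Kcnh8, an ELK-type channel, was 3.5 higher (adjusted p = 0.00222) and Cacna2d1, an accessory subunit of calcium channels, 1.88 higher than in cerebellum (adjusted p = 0.00862). Nalcn, the sodium leak channel, averaged 9.78 in MBs, 7.39 in GNPs and 9.82 in cerebellum, and so differed by 2.39 from GNPs (adjusted p = 0.00137). Cacng5, a regulator of AMPA receptors related to calcium channel gamma subunits, was 1.02 higher than in GNPs (adjusted p = 0.00272), and Pex5l, which binds HCN channels, 0.74 higher (adjusted p = 0.0218).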

How the data were processed

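The deposited values are log2 expression levels per probe set and array, which the authors obtained by GCRMA from Affymetrix mouse arrays. Of the 45101 probe sets, 34945 paired with 1 gene. A gene's value was the mean log2 of its probe sets without the suffixes s or x, or of all its probe sets where each carried a suffix (290 genes). No filter on level was applied to the resulting 18193 genes. Each sample came from a mouse with its own number, and p-values measure only the spread between these samples, whose number limits the precision. limma 3.58.1 in R 4.3.3 fitted the 12 samples as 3 groups, and MBs against the 4 normal samples in a fit of its own. P-values were two-sided and adjusted over all genes by the Benjamini-Hochberg method, and 0.05 was the threshold. The scripts were tested on simulated data. All measured members of the list are named, and of the further channel genes the 3 largest rises and the 3 largest falls past the test in MBs against each single tissue. Members, further genes and markers were chosen with earlier results of these data known. The alternatives were other rules for probe sets, quantile normalization or a common median on top, a trend and robust fit, array weights, a filter on level, a minimum difference of 1, the methods' t-test with adjusted p, fits of 2 groups only, and leaving out each sample. Averaging only probe sets with a group mean above 3 was chosen after seeing the data. Promoter sequences are from RefSeq (GRCm38.p6).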

Additional observations from a re-analysis of the deposited data

Results flagged for a closer look

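In 7 channel genes 1 tumor lay far from the other 7 by Dixon's criterion. Chance flags about 1 in 20 groups of normally spread values, and 31 genes were examined. For Scn4b, at the floor in 7 tumors, any value off the floor is flagged, so that rate does not hold there. Tumor MB_630 was the high value for Scn2a at 5.99 (next tumor 5.12), Scn4b at 2.82 (all other tumors 2.20), Cacna1g at 3.71 (next 2.75) and Kcna1 at 6.60 (next 5.15). It was the low value for Hcn2, at 4.12 with the next tumor at 4.38. Tumor MB_1187 stood at 6.08 for Kcnh2 (next 4.45), inside the range of the cerebellum samples. Tumor MB_1206 stood at 2.49 for Cacna1d (next 2.26), close to the floor.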

How the results depend on the processing

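No paired analysis was possible because the groups share no mouse number. With only 2 GNP and 2 cerebellum samples, calls against either tissue depend on single samples, and close to the floor a difference is a bound. Over the settings that keep all samples, 70 values for single genes lost their call, 15 gained one, 13 turned in sign and the others kept both direction and call. With a minimum log2 difference of 1 the counts were 2 higher and 15 lower in MBs than in cerebellum, 0 higher and 7 lower than in GNPs, 0 higher and 6 lower than in normal brain, while GNPs had 3 genes above cerebellum and 6 below it. Of all 18193 genes that setting left 1317 higher and 1460 lower in MBs against cerebellum, 855 and 886 against GNPs, 896 and 669 against normal brain, and 542 and 669 for GNPs against cerebellum. The filter on level, which tests fewer genes, kept 24 channel genes. Scn3a and Kcnj6 were not among them, so their rises were not tested in that setting. Of the genes kept, 2 were higher in MBs than in cerebellum, 0 than in GNPs and 0 than in normal brain. With all probe sets, or with the probe set of highest signal, 2 were higher than in GNPs. The added gene was Cacna1d, through its suffixed probe set, at 1.41 with all probe sets and 2.78 on that of highest signal. With quantile normalization 2 were higher than in normal brain, the added gene being Kcnj6 at 0.222. The methods' t-test left 8 lower in GNPs than in cerebellum. The cause of the other shifts was not tested.

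Leaving out 1 sample gave 2 to 4 genes higher in MBs than in cerebellum (2 without WC_2646 or WC_2647) and 19 to 23 lower, 0 to 1 higher than in GNPs (0 without CGNP_2705) and 11 to 17 lower (11 without CGNP_2698), 1 higher and 16 to 18 lower than in normal brain, while GNPs had 4 genes above cerebellum and 12 to 14 below it where a normal sample was left out.

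Some differences that did not pass turned in sign. On the probe set of highest signal those between MBs and cerebellum were 0.185 for Cacna1b and 0.195 for Cacna1c, those between MBs and normal brain were 0.878 for Cacna1d, 0.261 for Kcnq5 and 0.672 for Scn3b, and that between MBs and GNPs was 0.0411 for Kcnc4. With all probe sets Cacna1d was 0.316 against normal brain and Kcnc4 0.0194 against GNPs. With quantile normalization Cacna1g was 0.0545 and Kcnc4 0.00572 against GNPs, and with a common median Kcnc4 was 0.00894. With array weights Kcnc2 was -0.0232 against GNPs and Scn3b 0.0562 against normal brain. Without single samples the range against GNPs was -0.193 to 0.00837 for Cacna1g, -0.15 to 0.151 for Kcnc2 and -0.0237 to 0.0835 for Kcnj6. For Kcnq3 it was -0.32 to 0.0686 for MBs minus cerebellum, and for GNPs minus cerebellum -0.071 to 0.296. Against normal brain it was -1.62 to 0.00681 for Kcnq5 and -0.979 to 0.423 for Scn3b.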
